A study of Capra hircus with 20 samples.

Results

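Sarcomeric myosin genes were followed in goat preadipocytes and adipocytes from muscle and from subcutaneous fat. They were a list of 10 symbols, 5 heavy chains (MYH1, MYH2, MYH3, MYH7 and MYH8) and 5 light chains (MYL1, MYL2, MYL3, MYL4 and MYLPF), taken by name from the table of mRNA expression with the transcripts of each symbol summed. Of the 20587 symbols in that table, 6 of the 10 were found: MYH8, MYL1, MYL2, MYL3, MYL4 and MYLPF, with 8 transcripts among them. MYL2, MYL3, MYL4 and MYLPF had a single transcript each (XM_005691447.3, XM_005696023.3, XM_013972607.2 and NM_001285754.1). The fast heavy chains MYH1 and MYH2, the embryonic heavy chain MYH3 and the slow heavy chain MYH7 had no entry under these symbols and were not analysed here.

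The study sequenced RNA from cultured goat cells to follow lncRNAs and mRNAs before and after adipocyte differentiation in muscle and in subcutaneous fat. Cells were released with collagenase from longissimus dorsi and from subcutaneous fat of male Jianzhou Daer goats aged 7 days (n = 5 goats) and were used at passage 3. Intramuscular preadipocytes (IMPA) and subcutaneous preadipocytes (SPA) were collected on day 0, and intramuscular adipocytes (IMA) and subcutaneous adipocytes (SA) after 3 days in medium with oleic acid. Each of the 4 groups had 5 libraries, numbered 1 to 5, which makes 20 in all. The serum-containing base medium was the same in all groups, with oleic acid added for IMA and SA only, and no group carried a genetic change. No group was kept for 3 days without oleic acid, so time in culture and oleic acid cannot be told apart. Induction below means both together. The labels do not tie a library number to a goat, so a p-value here measures the spread between libraries. Cells freed from minced tissue by an enzyme can hold several cell types, and in bulk RNA a difference in the number of cells of a type and a difference in RNA per cell cannot be told apart.

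Myosin is the motor of the thick filament in muscle. Each molecule pairs heavy chains, which carry the ATPase and the tail, with essential and regulatory light chains bound at the neck. Muscle fibres are known to change isoforms as they mature, from embryonic and neonatal chains to the slow or fast chains of adult fibres. MYH8 encodes the neonatal heavy chain. MYL2 and MYLPF encode the slow and the fast regulatory light chain, MYL3 and MYL1 the slow and the fast essential light chain, and MYL4 the essential light chain of embryonic muscle and of the atrium.

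Values are FPKM, fragments per kilobase of transcript per 1000000 fragments, so levels of different genes could be set side by side per length. The FPKM sum over all tables was 527426 to 596669 per library and 15126 to 16961 symbols were above 0. The number of reads behind a single value is not given. In the read statistics of the study the mapped share and the GC content were higher in each IMPA library than in any library of the other groups, so both differ between the groups compared below, and their part in the results was not tested. Strand was kept in the libraries, but the treatment of reads that match several related genes is not given in the sources used here, so values of the closely similar heavy chain genes are uncertain. Differences were tested with limma on log2(FPKM + 1) over all symbols whose mean across the 20 libraries reached 1 FPKM, with Benjamini-Hochberg adjusted p-values over all symbols tested. A log2 difference on this scale understates the change of a gene near 0. All 6 genes reached that mean, through the intramuscular libraries alone. MYL3 reached it through the IMA libraries alone.

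The labelled cell types were compared with their markers. Skeletal muscle fibre markers (13 of 13 found, none of them a myosin) summed to 2483 to 2914 FPKM in IMPA and 8058 to 8776 FPKM in IMA, against 9.17 to 20.2 FPKM in SPA and 10.2 to 12.0 FPKM in SA. Between IMPA and IMA, 12 of the 13 rose, and MYOD1, a factor of early myogenesis, fell. Over all symbols tested, 19.9% were called higher in IMA and 60.1% in either direction. Adipocyte markers (7 of 8 found) had sums of 11.0 to 11.8 FPKM in IMPA, 7.01 to 8.38 FPKM in IMA, 10.7 to 12.1 FPKM in SPA and 9.90 to 12.1 FPKM in SA. CEBPA, a factor of adipogenesis, made up most of the intramuscular sums, with means of 9.23 ± 0.428, 5.42 ± 0.628, 5.05 ± 0.368 and 3.91 ± 0.603 FPKM in IMPA, IMA, SPA and SA (SD, n = 5 each), and CIDEC, a lipid droplet protein, had 4.65 ± 0.688 and 4.35 ± 0.187 FPKM in SPA and SA (SD, n = 5 each). LPL and PPARG had their highest means in SA, at 1.34 ± 0.271 and 1.03 ± 0.252 FPKM (SD, n = 5 each). ADIPOQ, PLIN1 and PLIN4 had means under 0.5 FPKM in all 4 groups. Stromal progenitor markers summed to 1008 to 1447 FPKM in IMPA, 1051 to 1142 FPKM in IMA, 6889 to 7179 FPKM in SPA and 5208 to 5622 FPKM in SA. The satellite cell markers PAX7 and MYF5 together reached 25.3 to 40.6 FPKM in IMPA and 38.5 to 42.1 FPKM in IMA, and 0 to 0.489 FPKM in the subcutaneous libraries. The intramuscular libraries thus held high RNA of muscle fibre genes under preadipocyte (IMPA) and adipocyte (IMA) labels. The study based differentiation in both depots on lipid droplets stained with Oil Red O after 3 days and on lower Pref-1 RNA. The part of muscle cells in the results below was not tested.

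All 6 genes were expressed in the intramuscular cells and were near or at 0 in the subcutaneous cells, and all 6 rose from IMPA to IMA. Summed, they made 2384 to 2684 FPKM in IMPA, which was 0.654 ± 0.0356% (SD, n = 5) of the mRNA FPKM, and 11333 to 11961 FPKM in IMA, which was 2.95 ± 0.0936% (SD, n = 5). The sums were 0.115 to 16.2 FPKM in SPA and 0.159 to 2.91 FPKM in SA. In IMA against IMPA, 19.9% of 11429 symbols were called higher and 60.1% were called in either direction, and the median log2 difference was -0.09 over all symbols and 2.52 over the 6 genes. Of all calls in this comparison 33.1% were higher in IMA, or 46.1% with the libraries rescaled to a common total (TPM scale), and all 6 genes were called higher on either scale. No IMA library overlapped an IMPA library in any of the 6 genes. The share of all symbols without overlap was 43.5%, or 14.3% counting only those higher in IMA. For MYL3, which passed the filter through IMA alone, the direction was largely set by the filter.

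**Figure D1:**
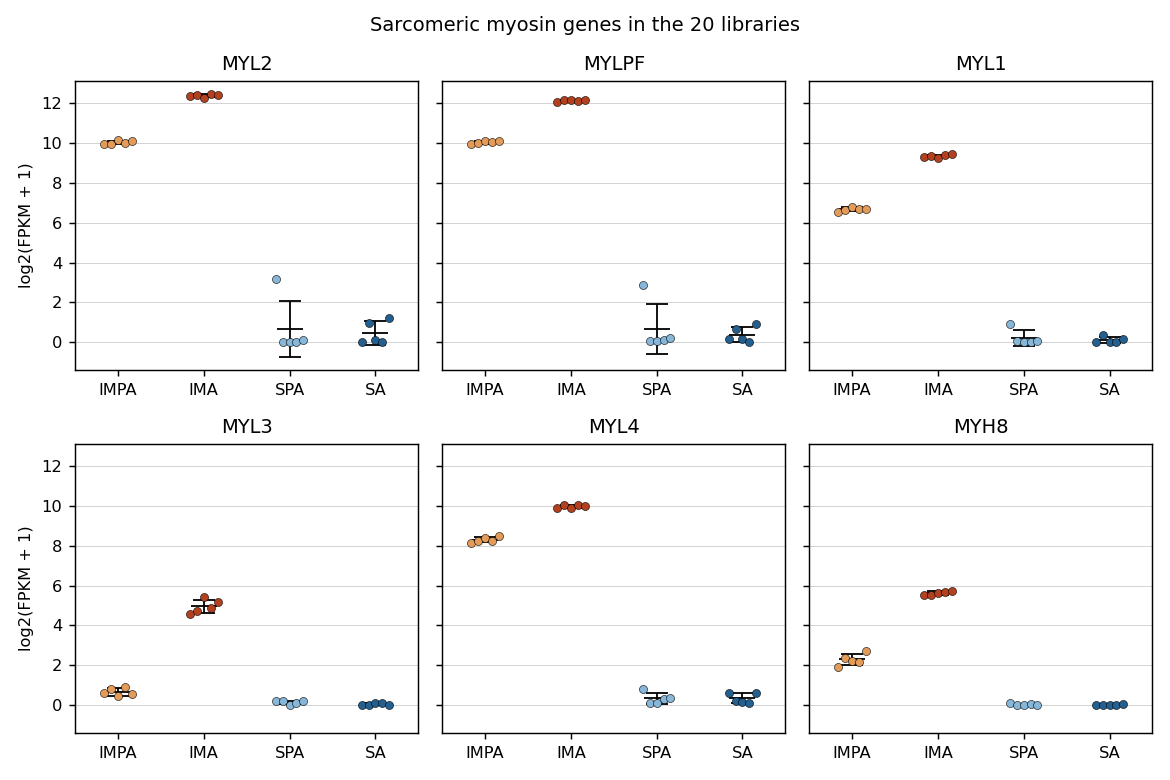
Expression of the 6 sarcomeric myosin genes as log2(FPKM + 1) in each of 5 libraries of IMPA, IMA, SPA and SA (points), with the group mean and SD (bars). In every panel the 5 IMA points lie above the 5 IMPA points, and the SPA and SA points lie near 0 except for MYL2 and MYLPF in SPA library 1, at 7.97 and 6.42 FPKM.

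The regulatory light chains were the most abundant of the 6. MYL2, the slow regulatory light chain, had 1000.2, 996, 1131, 1032 and 1089 FPKM in IMPA libraries 1 to 5 and 5369, 5514, 5028, 5604 and 5588 FPKM in IMA libraries 1 to 5. The groups did not overlap, and the lowest IMA library was 4.44 times the highest IMPA library. The means were 1049.7 ± 59.0 and 5420.5 ± 238 FPKM (SD, n = 5 each), a ratio of 5.16. The log2 difference was 2.37 with a standard error of 0.047 (limma, adjusted p = 4.1e-12).

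MYLPF, the fast regulatory light chain, stood level with MYL2 in IMPA, at 1003, 1017, 1104, 1086 and 1093 FPKM in libraries 1 to 5. In IMA it reached 4318, 4661, 4633, 4513 and 4545 FPKM. Its IMPA values overlapped those of MYL2, whereas every IMA value lay below the lowest IMA value of MYL2. MYLPF means were 1061 ± 47.3 and 4534 ± 135 FPKM (SD, n = 5 each), a ratio of 4.27, and the log2 difference was 2.10 with a standard error of 0.04 (limma, adjusted p = 2.9e-12). The ratio of MYL2 to MYLPF within a library moved from 0.989 ± 0.0273 in IMPA to 1.20 ± 0.0669 in IMA (SD, n = 5 each), with ranges of 0.950 to 1.02 and 1.09 to 1.24 that did not overlap. Slow and fast regulatory light chain RNA was thus present together in every intramuscular library.

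MYL4 had the highest level of the 3 essential light chains on the list. MYL4, the chain of embryonic muscle, had 285, 305, 334, 298 and 358 FPKM in IMPA libraries 1 to 5 and 969.6, 1055, 963, 1043 and 1035 FPKM in IMA. All IMA values were above all IMPA values, by at least 2.69 times. With means of 316 ± 29.7 and 1013 ± 43.4 FPKM (SD, n = 5 each) the ratio was 3.21 and the log2 difference 1.68 with a standard error of 0.059 (limma, adjusted p = 6.1e-10). Of the 6 genes it had the smallest log2 difference.

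MYL1, the fast essential light chain, had 92.3, 100.2, 109.7, 104 and 104 FPKM in IMPA and 638, 662, 618, 677 and 694 FPKM in IMA, in library order. The groups did not overlap. Its means were 102 ± 6.36 and 658 ± 30.7 FPKM (SD, n = 5 each), a ratio of 6.45 and a log2 difference of 2.68 with a standard error of 0.048 (limma, adjusted p = 2.3e-12). MYL1 is known to give a long and a short light chain from separate start sites. The table held 2 MYL1 transcripts, and XM_005676485.3 carried 99.1% ± 0.773 of the MYL1 FPKM in IMPA and 99.0% ± 0.0998 in IMA (SD, n = 5 each). Which chain each transcript encodes was not analysed here.

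MYL3, the slow essential light chain, was the exception in level. It had 0.524, 0.768, 0.367, 0.889 and 0.447 FPKM in IMPA libraries 1 to 5 and 23.0, 25.1, 42.0, 28.0 and 34.8 FPKM in IMA. Every IMPA library was under 1 FPKM and the IMA libraries ran from 23.0 to 42.0 FPKM. Means were 0.599 ± 0.221 and 30.6 ± 7.78 FPKM (SD, n = 5 each), a ratio of 51.1. The log2 difference of 4.28 with a standard error of 0.15 (limma, adjusted p = 5.6e-10) was the highest of the 11429 symbols tested, and it ranked 1 or 2 under every alternative run. MYL3 passed the filter through the IMA libraries alone, so the direction of its call was largely set by the filter. The call and the rank describe MYL3 and are no independent support. Even in IMA, MYL2 stood 187 ± 46.4 times above MYL3 (SD, n = 5), the slow regulatory against the slow essential chain.

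MYH8, the neonatal heavy chain, had 2.79, 4.20, 3.68, 3.51 and 5.59 FPKM in IMPA libraries 1 to 5 and 44.4, 44.9, 48.3, 51.0 and 52.0 FPKM in IMA. The lowest IMA library was 7.94 times the highest IMPA library. The means were 3.96 ± 1.04 and 48.1 ± 3.44 FPKM (SD, n = 5 each), a ratio of 12.2, and the log2 difference was 3.33 with a standard error of 0.12 (limma, adjusted p = 6.1e-10), which ranked 5 of 11429. Its 2 transcripts shared the level unevenly. XM_013972192.2 carried 62.3% ± 17.7 of the MYH8 FPKM in IMPA and 61.9% ± 8.26 in IMA (SD, n = 5 each), and IMPA library 1 stood apart at 31.0%. The summed light chains were 669 ± 147 times MYH8 in IMPA and 243 ± 16.1 times in IMA (SD, n = 5 each). Against MYH8 and the unnamed neighbouring locus LOC102181716 together, which is described further on, they were 7.81 ± 0.692 times in IMPA and 10.4 ± 0.630 times in IMA (SD, n = 5 each), so this ratio went up where the other went down. A make-up of the heavy chains could not be given from 1 member.

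Ordered by level, IMPA ran MYLPF, MYL2, MYL4, MYL1, MYH8 and MYL3, and IMA ran MYL2, MYLPF, MYL4, MYL1, MYH8 and MYL3. MYLPF and MYL2 in IMPA were the only neighbours in either order whose libraries overlapped. In IMA the nearest other pair was MYH8, with a lowest library of 44.4 FPKM, and MYL3, with a highest library of 42.0 FPKM.

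The make-up of the light chains moved between IMPA and IMA. As a share of the summed FPKM of the 5 light chains, MYL2 made 42.0%, 41.2%, 42.2%, 40.9% and 41.2% in IMPA libraries 1 to 5 and 47.4%, 46.3%, 44.6%, 47.2% and 47.0% in IMA. Its mean share went from 41.5% ± 0.567 to 46.5% ± 1.17 (SD, n = 5 each). The share of MYL1 went from 4.03% ± 0.124 to 5.64% ± 0.140 and that of MYL3 from 0.0239% ± 0.00932 to 0.263% ± 0.0704 (SD, n = 5 each). MYL4 held 12.5% ± 0.677 in IMPA and 8.69% ± 0.137 in IMA, and MYLPF 42.0% ± 0.751 and 38.9% ± 1.27 (SD, n = 5 each). For each of the 5 light chains the IMPA and IMA shares did not overlap, with the smallest gap for MYLPF, from a lowest IMPA share of 41.2% to a highest IMA share of 41.1%. MYL4 was 3.10 ± 0.217 times MYL1 in IMPA and 1.54 ± 0.0390 times in IMA (SD, n = 5 each), so the embryonic chain kept the higher level while the fast chain came closer. The regulatory chains together were 5.05 ± 0.235 times the essential chains MYL1, MYL3 and MYL4 in IMPA and 5.85 ± 0.0932 times in IMA (SD, n = 5 each). These shares and ratios are descriptions, and no test was run on them.

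**Figure D2:**
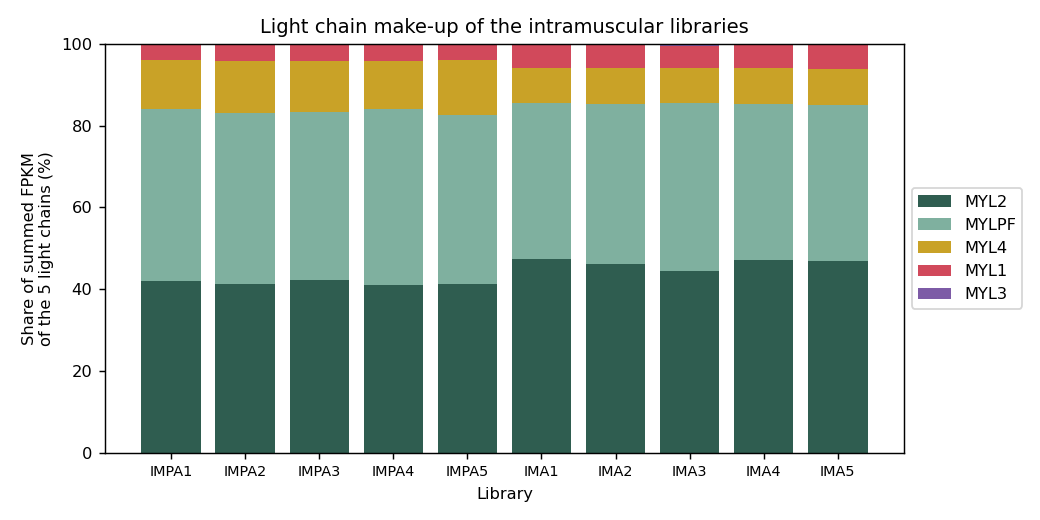
Share of each light chain gene in the summed FPKM of MYL2, MYLPF, MYL4, MYL1 and MYL3 (percent, stacked bars) in the 5 IMPA and 5 IMA libraries. The MYL2 and MYL1 segments are taller and the MYLPF and MYL4 segments shorter in IMA than in IMPA; MYL3, at most 0.372%, is too thin to see.

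In the subcutaneous cells the 6 genes gave no call. Of 11426 symbols tested in SA against SPA, 52.1% were called, 26.1% higher in SA. With limma, 0 of the 6 were called and 0 had an unadjusted p under 0.05. A linear model with a library size covariate in the manner of Ballgown, below called the Ballgown model, also called 0. The Ballgown package itself was not run. Their adjusted p-values ran from 0.146 for MYL3 to 0.942 for MYL4, and SPA and SA overlapped in every gene, whereas 38.8% of all symbols showed no overlap. The median log2 difference of the 6 was -0.09, against -0.01 over all symbols.

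These were values close to the lower end of the scale. MYL2 had 7.97, 0, 0, 0 and 0.0843 FPKM in SPA libraries 1 to 5 and 0, 0.933, 0.0830, 0 and 1.36 FPKM in SA. SPA library 1 was far above the other SPA libraries, and 3 SPA and 2 SA libraries were listed at 0. The log2 difference was -0.20, with an interval of 2 standard errors on either side from -1.30 to 0.91 (limma, adjusted p = 0.792), which leaves room for a change in either direction. MYLPF had 6.42, 0.0297, 0.0451, 0.0880 and 0.157 FPKM in SPA and 0.133, 0.604, 0.106, 0 and 0.871 FPKM in SA, again with SPA library 1 on top. Its log2 difference was -0.28, with an interval from -1.23 to 0.67 (limma, adjusted p = 0.647). Without SPA library 1 the differences turned to 0.43 for MYL2, 0.27 for MYLPF and 0.071 for MYL1, with adjusted p-values of 0.154, 0.18 and 0.416 (limma).

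The other 4 genes were under 1 FPKM in all 10 subcutaneous libraries. MYL4 was above 0 in each of them, at 0.761, 0.0653, 0.0594, 0.234 and 0.262 FPKM in SPA and 0.537, 0.148, 0.123, 0.0821 and 0.517 FPKM in SA. Its groups lay over each other, with a log2 difference of 0.01 and an interval from -0.27 to 0.30. MYL1 had 0.869, 0.0462, 0, 0 and 0.0451 FPKM in SPA and 0, 0.269, 0, 0 and 0.127 FPKM in SA, highest in SPA library 1 and listed at 0 in 5 libraries. MYL3 ranged from 0 to 0.148 FPKM in SPA and from 0 to 0.0770 FPKM in SA. MYH8 ranged from 0.00437 to 0.0615 FPKM in SPA and from 0 to 0.0350 FPKM in SA, and its transcript XM_013972192.2 was listed at 0 in all 10 libraries.

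**Figure D3:**
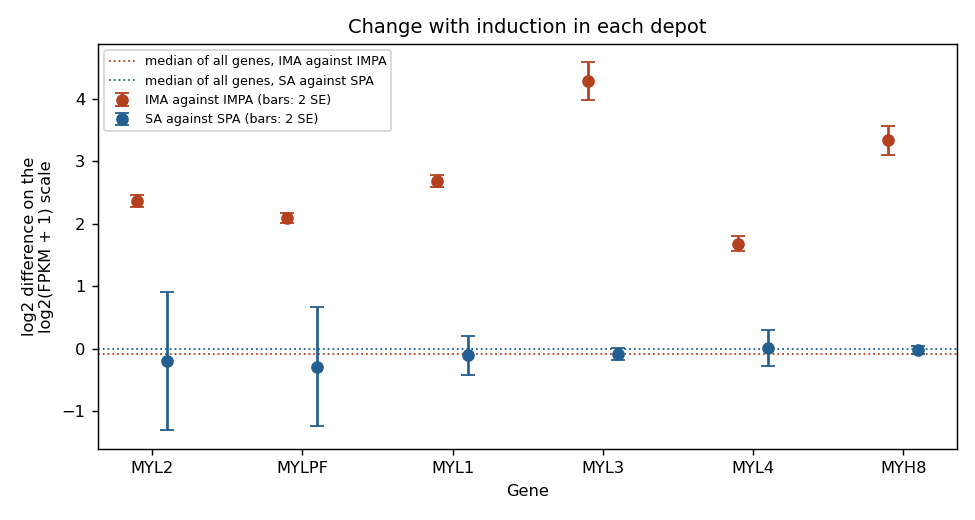
Difference between the induced and the day 0 cells on the log2(FPKM + 1) scale for each gene, IMA against IMPA and SA against SPA, with bars of 2 standard errors and dotted lines at the median of all symbols in each comparison (-0.09 and -0.01). The intramuscular differences lie between 1.68 (MYL4) and 4.28 (MYL3), and every subcutaneous interval crosses 0.

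SPA library 1 held the highest SPA value of 5 of the 6 genes, and the sum of the 6 was 16.2 FPKM there against 0.115 to 0.700 FPKM in the other 4 SPA libraries. Among the SA libraries, library 5 had a sum of 2.91 FPKM and library 2 of 1.95 FPKM, against 0.159 to 0.669 FPKM in the rest. In SPA library 1 the MYL2 value equalled 0.759% of the IMPA mean, the MYLPF value 0.605%, the MYL1 value 0.852%, the MYL4 value 0.241% and the MYH8 value 1.55%. MYL3, which was low in IMPA too, stood at 21.3% of the IMPA mean there. In these 3 libraries MYL2 made 49.4%, 47.2% and 47.7% of the light chain FPKM and MYLPF 39.7%, 30.3% and 30.9%. They were picked by their high sums, which MYL2 and MYLPF mostly made, so the lead of these chains follows from the choice. In the other subcutaneous libraries MYL4 held the largest share, from 31.9% in SA library 3 to 80.2% in SA library 1. The exception was SPA library 2, led by MYL3 with 49.6%. In SPA library 1 the skeletal muscle fibre markers summed to 20.2 FPKM, against 9.17 to 10.4 FPKM in the other SPA libraries. In SA libraries 5 and 2 they summed to 10.2 and 12.0 FPKM, the lowest and the highest of SA, against 10.3 to 11.8 FPKM in the rest. TNNT3 alone made 5.51 to 7.90 FPKM of each subcutaneous sum and was lowest in SA library 5, whose low rank among the SA sums rested on it. Of the other markers, DES, TNNC1, TNNT1 and MYOG had their highest SA value in library 5, and TNNI2 and MYF6 their lowest. Whether the marker genes had a part in these values was not tested.

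**Figure D4:**
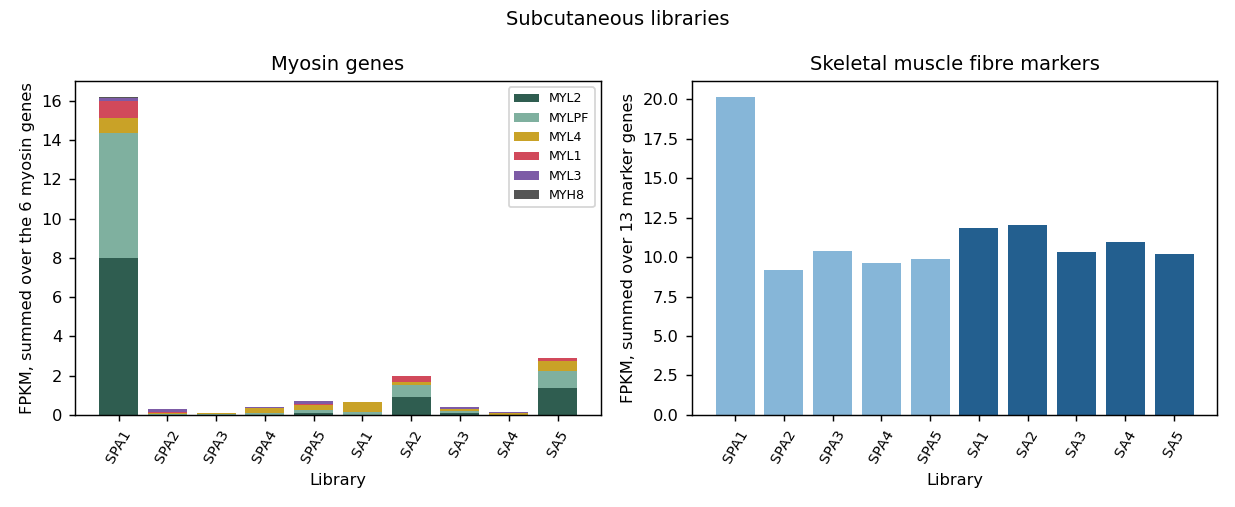
Left, FPKM of the 6 myosin genes stacked by gene in each SPA and SA library. Right, summed FPKM of 13 skeletal muscle fibre markers in the same libraries. SPA library 1 is the tallest bar in both panels, at 16.2 and 20.2 FPKM.

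Between depots on day 0, IMPA against SPA, all 6 genes were called higher in IMPA, where 42.3% of 11432 symbols were higher and 75.1% were called in either direction. In none of the 6 did the groups overlap, as in 63.4% of all symbols, or 35.9% counting only those higher in IMPA. The 6 genes passed the filter through the intramuscular libraries alone, so the direction of these calls was largely set by it. The calls describe the 6 genes and are no independent support. The lowest IMPA library was 375 times the highest SPA library for MYL4, 156 times for MYLPF, 125 times for MYL2 and 106 times for MYL1. It was 45.5 times for MYH8 and 2.49 times for MYL3. The log2 differences were 9.39 for MYLPF, 9.38 for MYL2, 7.98 for MYL4, 6.48 for MYL1 and 2.26 for MYH8, with limma adjusted p-values from 2.5e-14 to 4.0e-09. MYL3, at under 1 FPKM in all 10 libraries, differed by 0.54 (limma, adjusted p = 1.4e-04). Without SPA library 1 the differences of MYL2 and MYLPF were 10.01 and 9.94. The Ballgown model, linear with a covariate for library size, made 1698 calls over all symbols against 8588, and 2 of the 6 genes, MYL1 and MYL4, were called in it. MYL3 was at -0.50 in that model.

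After induction, IMA against SA, all 6 genes were again higher in the intramuscular cells and free of overlap, where 29.0% of 11432 symbols were called higher and 72.4% in either direction. For 58.6% of all symbols the groups did not overlap, or 24.0% counting only those higher in IMA. Here too the filter was passed through the intramuscular libraries alone, so the direction was largely set in advance and the calls are descriptive. MYL2 and MYLPF had the highest log2 differences of all symbols, at 11.94 and 11.76 (limma, adjusted p = 1.2e-15 and 1.7e-17), and kept ranks 1 and 2 under every alternative run. MYL4 differed by 9.64, MYL1 by 9.26, MYH8 by 5.60 and MYL3 by 4.91. The median over the 6 genes was 9.45, and over all symbols -0.09.

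The test of whether the change with induction differed between depots, the intramuscular minus the subcutaneous change in a fit of 20 libraries, called 6 of the 6 genes more positive in the intramuscular cells. In this test 20.7% of 11432 symbols were more positive and 55.3% were called in either direction. Of all calls 37.5% were more positive, or 54.9% on the TPM scale and 48.0% after quantile normalization. The difference of changes was 4.37 for MYL3, 3.35 for MYH8, 2.78 for MYL1, 2.56 for MYL2, 2.38 for MYLPF and 1.67 for MYL4, with limma adjusted p-values from 1.2e-14 (MYL3) to 0.00112 (MYL2). For MYL3, which passed the filter through IMA alone, the direction was largely set by the filter and the call is descriptive. With a pseudocount of 0.1 the values for MYL2 and MYLPF were 2.19 and 2.27 and no longer passed (limma, adjusted p = 0.169 and 0.0837). Without SPA library 1 they were 1.94 and 1.82 and passed (limma, adjusted p = 1.9e-06 and 2.0e-08). The subcutaneous values lay near 0, where a fall can only be small on this scale, so the test sets a rise in the intramuscular cells against values at the lower end of the scale.

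**Figure D5:**
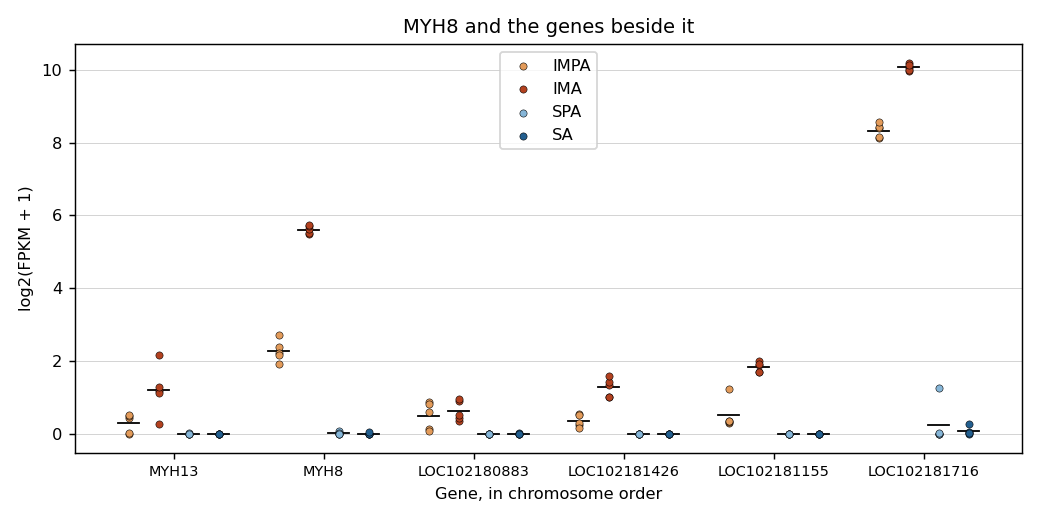
MYH8, MYH13 and 4 unnamed protein-coding loci beside it in the order of the RefSeq annotation of assembly ARS1.2, as log2(FPKM + 1) in each library (points) with the mean (line) in IMPA, IMA, SPA and SA. LOC102181716, with mean levels of 323 FPKM in IMPA and 1075 FPKM in IMA, stands above MYH8 in every intramuscular library, and MYH13 and the other 3 loci stay under 4 FPKM.

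Heavy chain genes of skeletal muscle are known to lie side by side on the chromosome, so the genes around MYH8 were looked up in the RefSeq table of assembly ARS1.2, a later release than the ARS1 build behind the files, and used only for their order. MYH13, the heavy chain known from eye and larynx muscle, lay next to MYH8, with means of 0.247 ± 0.213 FPKM in IMPA and 1.52 ± 1.22 FPKM in IMA (SD, n = 5 each). On its other side lay the protein-coding loci LOC102180883, LOC102181426, LOC102181155 and LOC102181716, to which neither the files nor that table give a gene name. LOC102180883, LOC102181426 and LOC102181155 had IMPA means of 0.462 ± 0.372, 0.296 ± 0.158 and 0.487 ± 0.499 FPKM (SD, n = 5 each). Their IMA means were 0.573 ± 0.310, 1.47 ± 0.444 and 2.62 ± 0.335 FPKM (SD, n = 5 each). IMPA and IMA overlapped for LOC102180883 but not for LOC102181426 and LOC102181155. Their means over the 20 libraries were below the limit, so they were not tested. LOC102181716 had 276, 283, 337, 341 and 376 FPKM in IMPA libraries 1 to 5 and 1055, 1002, 1019, 1173 and 1126 FPKM in IMA, and at most 1.38 FPKM in the subcutaneous libraries, in SPA library 1. Its IMA and IMPA values did not overlap, and the log2 difference was 1.74 with a standard error of 0.082 (limma, adjusted p = 7.2e-09). It was 84.5 ± 15.8 times MYH8 in IMPA and 22.4 ± 1.05 times in IMA (SD, n = 5 each). This locus was singled out after its values were seen.

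Of 10 other sarcomeric myosin symbols 5 were found and only MYH7B, a heavy chain related to the slow chain, had a mean above 1 FPKM. It rose from 1.66 ± 0.206 to 2.64 ± 0.315 FPKM (SD, n = 5 each), a log2 difference of 0.45 (limma, adjusted p = 2.2e-04). MYL7, the regulatory light chain of the atrium, was listed at 0 in all 10 intramuscular libraries, and so was the cardiac factor NKX2-5, beside high MYL4 and MYL2, which the heart also uses. TNNI3, the cardiac troponin I, was at 5.97 ± 0.699 FPKM in IMPA and 14.1 ± 3.00 FPKM in IMA (SD, n = 5 each).

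Of 6 non-muscle and smooth muscle myosin II genes tested, 1 rose, 2 fell and 3 were not called between IMPA and IMA, where 60.1% of all symbols were called and 19.9% were higher. The gene that rose was MYL6B, an essential light chain known from slow muscle and non-muscle cells, with 316, 306, 362, 332 and 349 FPKM in IMPA libraries 1 to 5 and 1363, 1333, 1295, 1411 and 1423 FPKM in IMA. Its groups did not overlap, and its log2 difference was 2.03 with a standard error of 0.049 (limma, adjusted p = 2.1e-11). MYL6B was 0.974 to 1.11 times MYL4, the highest essential chain on the list, in IMPA and 1.26 to 1.41 times in IMA. Counted with it, the essential chains summed to 3067 ± 113 FPKM in IMA, and the regulatory chains were 3.25 ± 0.0608 times as high (SD, n = 5 each). The non-muscle heavy chain MYH10 fell by 0.55 and the light chain MYL6 by 0.19 on the log2 scale (limma, adjusted p = 2.3e-04 and 0.0152), and MYH9 had -0.15 (adjusted p = 0.0573). In SA against SPA the same 6 gave 2 higher, 3 lower and 1 not called (52.1% of all symbols were called), among them MYL6B, which fell by 0.78 on the log2 scale, from 8.06 ± 0.965 to 4.27 ± 0.645 FPKM (SD, n = 5 each).

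Genes of proteins that sit on the thick filament rose too in the intramuscular cells. Of 8 thick filament partners tested, 7 rose and 1, OBSL1, was not called, with a median log2 difference of 1.70 against -0.09 over all symbols, of which 19.9% rose and 60.1% were called. MYBPC1, slow myosin binding protein C, rose from 12.5 ± 1.34 to 146 ± 4.81 FPKM (SD, n = 5 each), a log2 difference of 3.45 (limma, adjusted p = 2.3e-12). MYOM2 and MYOM1, myomesins of the M band, had differences of 1.97 and 1.87, and MYBPH, a smaller binding protein of the thick filament, of 1.86 (limma, adjusted p from 6.2e-11 to 6.4e-10). In SA against SPA, where 52.1% of all symbols were called, 0 of the 8 rose and 2 fell, MYBPH by 1.23 and MYOM1 by 0.09 on the log2 scale (limma, adjusted p = 2.5e-08 and 0.0407).

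Of 7 genes of myosin folding, phosphorylation and turnover tested, 6 rose from IMPA to IMA, against 19.9% of all symbols that rose and 60.1% that were called, with a median log2 difference of 0.95. HSPB7, a small heat shock protein of muscle, rose by 1.87, and the muscle RING finger genes TRIM54, TRIM63 and TRIM55 rose by 1.56, 1.31 and 0.95 (limma, adjusted p from 6.1e-10 to 3.6e-08). UNC45B, the chaperone that folds the myosin head, rose from 10.8 ± 1.51 to 19.7 ± 2.10 FPKM (SD, n = 5 each). SMYD1, a methyltransferase of thick filament assembly, had 3.98 ± 0.618 and 4.86 ± 0.709 FPKM (SD, n = 5 each) and was not called (limma, adjusted p = 0.062). In SA against SPA, with 52.1% of all symbols called, only FBXO32, a muscle ubiquitin ligase subunit, was called among the 7, with a log2 difference of 0.15 (limma, adjusted p = 0.0046).

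The genes whose pattern over the 20 libraries was most like that of each myosin were found by the root mean square (RMS) difference between centred log2(FPKM + 1) values, over 11431 other symbols. MYL2 and MYLPF were each other's nearest, at an RMS difference of 0.168, followed for both by TNNC1, the slow and cardiac troponin C, and ACTC1, cardiac alpha actin. Nearest to MYL1 came TNNT1, slow troponin T, at 0.192, then LOC102181869 and ACTA1, skeletal alpha actin. Nearest to MYL4 was LOC102181716, at 0.220, then DES, the muscle intermediate filament desmin, at 0.259 and ACTA1 at 0.305. MYH8 lay closest to LOC102181181 at 0.247, TNNI2, fast troponin I, at 0.377 and MEF2C, a muscle transcription factor, at 0.419. MYL3 had no neighbour nearer than MRLN, the micropeptide myoregulin, at 0.402, with CTXN3 at 0.515 and APOBEC2 at 0.574. The libraries form separate groups, so these likenesses are mostly those of group levels.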

How the data were processed

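Total RNA of 20 cultured cell samples (IMPA, IMA, SPA and SA, 5 libraries each, grouped by the sample labels) was sequenced from strand-specific dUTP libraries. The authors aligned the reads with HISAT2 2.0.4 to the goat assembly ARS1 and calculated the deposited FPKM per transcript with StringTie 1.3.1 and Ballgown, in separate tables for mRNAs, annotated lncRNAs and newly assembled lncRNAs. GATK 2.6-5 is also listed in the submitters' processing notes. The handling of multi-mapped reads is not given in the sources used here. Mapped reads per library are listed by the study, but no counts per gene were used here, so the reads behind a value are not known, a 0 may be a level too low to be seen, and no counting interval was given. All 20 libraries were used and no column was left unmatched.

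FPKM of the mRNA table were summed per symbol (43766 transcripts, 20587 symbols). Symbols whose mean across the 20 libraries reached 1 FPKM were tested on log2(FPKM + 1) with limma 3.58.1 in R 4.3.3 (moderated variances with a trend, two-sided, Benjamini-Hochberg over all symbols tested, threshold 0.05). A fit of the 10 libraries compared was used for each pair of groups and a fit of 20 libraries for the difference between depots. Symbols constant within a fit were left out of it. The script was tested on simulated data with known changes. The study's methods name the tools but no covariate. A linear model with a library size covariate in the manner of Ballgown was run as an alternative, without the Ballgown package. Further alternatives were other filters, pseudocounts, scalings, variance models, a replicate block, unsummed transcripts and each library left out in turn. Nearest genes were the 3 other tested symbols with the smallest root mean square difference. Named genes of the context lists were, of those that passed, the 4 with the largest absolute log2 difference, and other names were added to describe a group. The 10 symbols, the lists and the tests were chosen with earlier results of these data known. Neighbours of MYH8 came from a RefSeq table of assembly ARS1.2, in which 6 of the 10 symbols matched, and no coordinate or sequence was taken from it. Further lists checked were smooth muscle markers (3 tested, 1 higher and 2 lower in IMA), endothelium markers (none tested, sums of at most 0.933 FPKM), proliferation markers (4 tested, 2 lower in IMA, 4 higher in SA) and housekeeping genes (5 found, above 0 in every library). Over all symbols, 60.1% were called and 19.9% higher in IMA against IMPA. In SA against SPA, 52.1% were called and 26.1% higher.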

Additional observations from a re-analysis of the deposited data

Results flagged for a closer look

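Among the 24 sets of 5 libraries, 1 for each gene and group, 5 held a library whose gap to the nearest other library was large against the range of the set (Dixon's test, 95% critical value 0.71). That critical value assumes normally spread, separate sets. The 5 sets were all subcutaneous, with most values near 0, and shared libraries, so it gives no rate of chance here. In 4 of the 5 it was SPA library 1, with 7.97 FPKM of MYL2, 6.42 FPKM of MYLPF, 0.869 FPKM of MYL1 and 0.761 FPKM of MYL4, against at most 0.0843, 0.157, 0.0462 and 0.262 FPKM in the other SPA libraries. The remaining set was MYH8 in SA, with 0.0350 FPKM in library 5 against at most 0.00786 FPKM in the others. ACTA1, the skeletal alpha actin, was at 1.03 FPKM in SPA library 1, and the part of muscle RNA in these values was not tested.

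The change with induction differed between intramuscular and subcutaneous cells in all 6 genes (limma, difference of the changes, adjusted p from 1.2e-14 to 0.00112). The differences on the log2(FPKM + 1) scale were 4.37 for MYL3, 3.35 for MYH8, 2.78 for MYL1, 2.56 for MYL2, 2.38 for MYLPF and 1.67 for MYL4, where 55.3% of all symbols tested were called. MYL3 passed the filter through IMA alone, so its direction was largely set by the filter. MYL2 and MYLPF were no longer called with a pseudocount of 0.1 (limma, adjusted p = 0.169 and 0.0837), nor was MYL2 in the Ballgown linear model (adjusted p = 0.058). Without SPA library 1 those of MYL2 and MYLPF were 1.94 and 1.82, and both were called.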

How the results depend on the processing

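In IMA against IMPA and in IMA against SA, all 126 alternative values of the 6 genes in each comparison kept their direction and their call. The linear model with the Ballgown covariate moved the counts of called symbols to 4221 (IMA against IMPA, 6865 in limma), 1698 (IMPA against SPA, 8588) and 3496 (IMA against SA, 8277). In it, IMPA against SPA was no longer called for MYH8 (2.11), MYL2 (12.35) and MYLPF (11.79), with adjusted p-values of 0.215, 0.133 and 0.114, and MYL3 turned to -0.50; the cause was not tested. For the difference between depots, MYL2 was lost with a pseudocount of 0.1 (2.19) and in the Ballgown model (2.31, adjusted p = 0.058), and MYLPF with a pseudocount of 0.1 (2.27). In SA against SPA, where no gene was called, signs turned: MYL2 was 0.18 with a pseudocount of 0.1, MYL4 was -0.090 in the Ballgown model, and MYL1, MYL2 and MYLPF were 0.054, 0.24 and 0.14 without SPA library 1 and SA library 5. With single libraries left out, MYL1 ranged from -0.16 to 0.071, MYL2 from -0.39 to 0.43 and MYLPF from -0.44 to 0.27, each positive only without SPA library 1, and MYL4 from -0.055 to 0.14. MYL4 turned negative without SPA library 2 or 3 or SA library 1 or 5. MYL3 passed without SPA library 3 (-0.12, adjusted p = 0.0454). Heavy chain shares were not run, since 1 heavy chain was found.

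Libraries with the same number did not deviate together in every pair of groups (correlations of deviations from -0.242 to 0.122; a library was nearest to its own number in 3, 2, 0 and 1 of 5 cases in IMA against IMPA, IMPA against SPA, IMA against SA and SA against SPA). With the replicate block the counts were 6836, 8530, 8059 and 5624 in that order, and 6304 for the difference between depots, and no call of the 6 genes changed.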
